A study of Brassica rapa subsp. pekinensis with 6 samples.

Results

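After 3 h at 28 °C, 4303 of 25400 genes had probe intensities at least 2-fold apart in the Chinese cabbage inbred lines Kenshin and Chiifu, with 2361 higher in Kenshin and 1942 higher in Chiifu. The 25400 genes compared were those with a probe intensity (PI, the fluorescence of a gene's probes on a linear scale) above 500 in at least 1 of the 28 °C samples, out of 41173 genes on the Br135K microarray. The line ratio was the PI in Kenshin over the PI in Chiifu, with 50 added to each. A gene was called 28 °C-only when its ratio was at least 2-fold at 28 °C and under 2-fold at both 22 and 12 °C, and 1930 genes met this rule. The other 2373 genes already had a line difference of at least 2-fold at 22 °C, at 12 °C or at both.

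The study sampled shoots of *Brassica rapa* ssp. *pekinensis* and asked which genes go with adaptation to high temperature. Kenshin is a line of subtropical and tropical origin used in breeding for heat tolerance, and Chiifu is a line of temperate origin. Plants of each line were grown for 3 weeks at 22 °C in long days, some were then held at 12 °C for 2 days, and some of these were warmed to 28 °C for 3 h, each step ending with a sample of each line. Both 28 °C samples had therefore passed through 12 °C, and no sample went directly from 22 to 28 °C. The labels name 1 sample per line and temperature. The deposited table holds 1 value for each, while the study describes repeated experiments with tabulated means and the series' design text describes a withdrawal of water with replicates. Whether each value is a single measurement or a mean could not be settled. No value below therefore has a replicate error, no comparison has a test or p-value, and counts past 2-fold are descriptions of these 6 samples. The probes were designed on the Chiifu sequence, so a lower transcript level in Kenshin and a poorer match of the probe to the Kenshin transcript cannot be told apart. In whole shoots, fewer cells of a type and less RNA per cell cannot be told apart either.

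Plants meet a rise in temperature in several layers. Heat shock transcription factors such as HSFA2 switch on genes for heat shock proteins (HSPs). Small HSPs bind unfolding proteins, HSP70 and its DnaJ partners refold them, and HSP101 pulls apart aggregates. Milder warmth is also read through the light receptor phytochrome B and the phytochrome interacting factor PIF4, which in *Arabidopsis* promotes elongation growth.

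The 6 samples were alike in overall level. The median PI over all genes lay between 965 and 1034, and between 23669 and 24035 genes per sample exceeded 500. Chiifu at 28 °C had the lowest of both values, and it held the highest PI of the 6 samples for more of the 25400 genes (20.9%) than any other sample, and likewise the lowest (20.9%). The control feature of random sequence read 27.4 in Kenshin and 30.5 in Chiifu at 28 °C. Of 14 control features for sGFP and Bar, 9 were brightest in Chiifu at 28 °C. Their part in the line difference was not tested. The labels were checked against the data. Of 21 small HSP genes, 18 in Kenshin and 21 in Chiifu were brighter at 28 than at 12 °C. The study had chosen some of the 21 on these samples by their levels in Kenshin under warming, so the count in Kenshin is not independent of that choice. Of 408 genes at least 10-fold apart between the lines at 22 °C, 401 had the same line higher at 12 °C and 401 at 28 °C.

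Genes at least 2-fold higher in Kenshin at 28 °C made up 9.3% of the genes compared, and those at least 2-fold higher in Chiifu made up 7.65%. For the same genes these shares were 6.59% and 7.96% at 22 °C, and 3.87% and 6.14% at 12 °C. The intensity minimum was set on the 28 °C samples, so a gene could pass through its brighter line at 28 °C alone. This bears on these shares and on the spreads given below. Over genes above 500 in a sample of the temperature concerned, the shares were 7.86% and 8.41% at 22 °C, and 4.53% and 6.42% at 12 °C. The excess of genes higher in Kenshin at 28 °C was not kept under every scaling. With each sample scaled to the same median, which moved the median log2 ratio at 28 °C to -0.07 from 0.03, 2080 genes were higher in Kenshin and 2267 in Chiifu. The line ratios were least spread at 12 °C, where 77.9% of the genes lay within 1.5-fold, against 70.6% at 22 °C and 67.5% at 28 °C. Across the 25400 genes the log2 ratio at 28 °C had a Pearson correlation of 0.656 with that at 22 °C and of 0.649 with that at 12 °C. Genes are not independent replicates, and the probes of a gene are the same at each temperature.

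**Figure D1:**
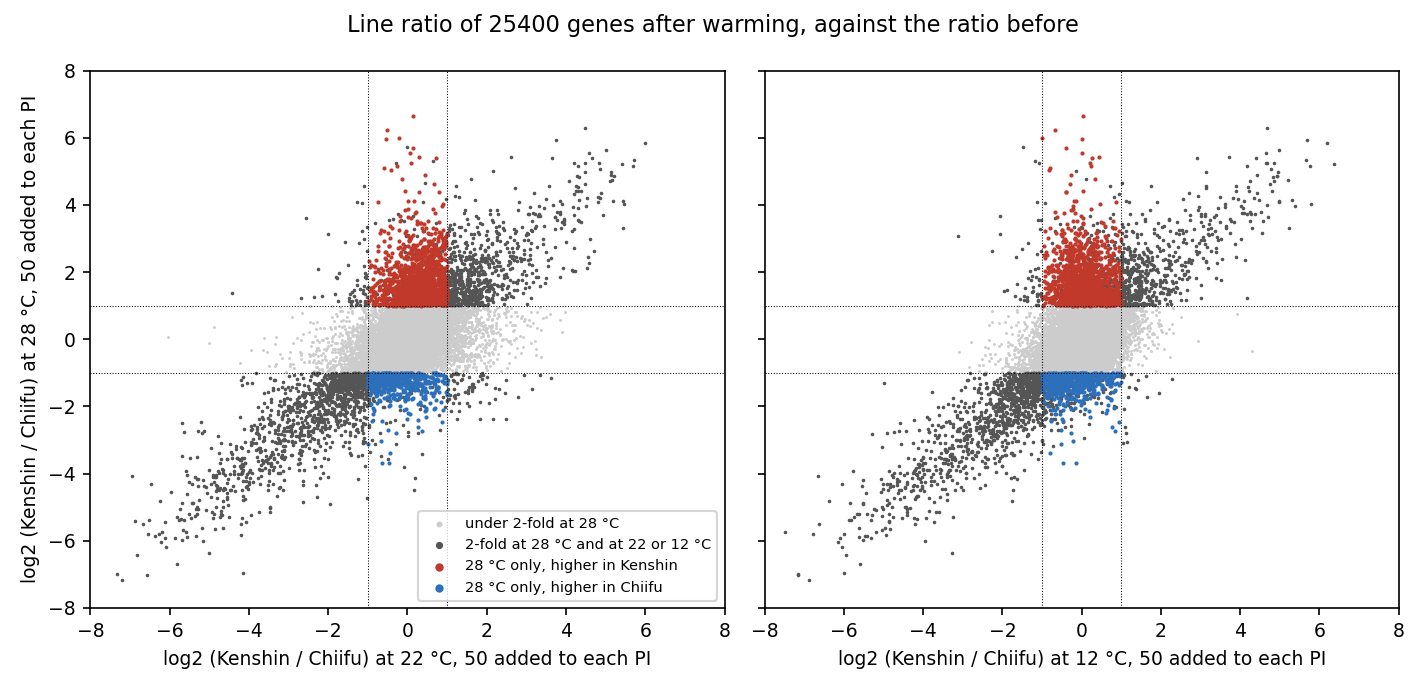
Each point is 1 of 25400 genes, with the log2 line ratio (Kenshin over Chiifu, 50 added to each PI) at 28 °C on the vertical axis and that at 22 °C (left) or 12 °C (right) on the horizontal axis. Dotted lines mark 2-fold, and the 1385 red and 545 blue points are the 28 °C-only genes higher in Kenshin and in Chiifu.

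The direction of the line difference went with whether it was seen at 28 °C only or at all temperatures. Among the 28 °C-only genes, 1385 were higher in Kenshin (5.45% of the genes compared) and 545 were higher in Chiifu (2.15%), so that 71.8% were higher in Kenshin. Among the 1342 genes with the same direction at all temperatures, 415 were higher in Kenshin and 927 were higher in Chiifu, so that 69.1% were higher in Chiifu. The 28 °C-only genes were thus mostly brighter in Kenshin, and the lasting differences were mostly brighter in Chiifu, the line on which the probes were designed. The share of 28 °C-only genes higher in Kenshin was 61.8% with median scaling and 66.9% with quantile normalization.

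**Figure D2:**
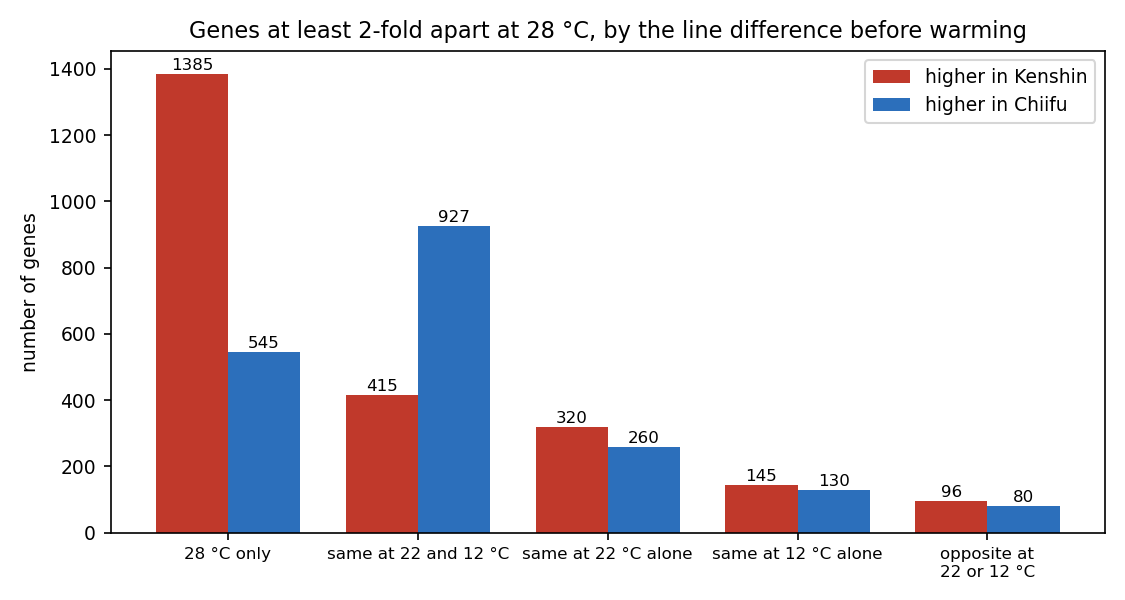
Bars give the number of genes at least 2-fold apart at 28 °C, those higher in Kenshin on the left of each pair and those higher in Chiifu on the right, grouped by the line difference at 22 and 12 °C. Genes higher in Kenshin are the larger number among 28 °C-only genes (1385 against 545) and the smaller among genes with the same difference at both 22 and 12 °C (415 against 927).

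The remaining genes differed at 1 of the earlier temperatures, or had turned. In the same direction at 22 °C alone there were 320 genes higher in Kenshin and 260 higher in Chiifu, and at 12 °C alone 145 and 130. A difference of at least 2-fold in the opposite direction at 22 or 12 °C was found for 96 genes higher in Kenshin and 80 higher in Chiifu at 28 °C. Most differences that were present at both 22 and 12 °C were still there after warming, in 415 of 533 genes (77.9%) higher in Kenshin and in 927 of 1125 genes (82.4%) higher in Chiifu.

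The differences seen at 28 °C only were smaller than the lasting ones. The rule itself leans this way, since lasting differences had to pass 2-fold at every temperature and ratios were correlated between temperatures. In 28 °C-only genes higher in Kenshin the median fold was 2.81, 345 genes reached 4-fold and 41 reached 10-fold. In 28 °C-only genes higher in Chiifu the median fold was 2.37, 28 genes reached 4-fold and 3 reached 10-fold. Genes with the same difference at all temperatures had a median fold of 4.98 where Kenshin was higher and of 5.33 where Chiifu was higher. A 28 °C-only difference of 4-fold or more was therefore seen in 24.9% of those higher in Kenshin and in 5.14% of those higher in Chiifu.

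The same rule was set at each of the other temperatures, over genes above 500 in a sample of that temperature. At 22 °C only, 983 genes were higher in Kenshin and 634 in Chiifu, and at 12 °C only, 373 and 288. A larger number higher in Kenshin was thus seen at each of the 3 temperatures and was not particular to 28 °C. The number at 28 °C only was therefore the largest of the 3 for genes higher in Kenshin (1385), while for genes higher in Chiifu it was 545 and lay below that at 22 °C.

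Dimmer genes differed more often. Of the 3295 genes whose brighter 28 °C sample had a PI of 500 to 1000, 9.83% were 28 °C-only and higher in Kenshin and 2.97% were 28 °C-only and higher in Chiifu. Of the 4889 genes above 10000, the shares were 1.72% and 1.23%. The 28 °C-only genes higher in Kenshin outnumbered those higher in Chiifu in each of the 5 intensity ranges examined. The gene just inside the limit on the Kenshin side was Bra014487 with a ratio of 2.00, and Bra022155 with a ratio of 1.9999 lay just outside. On the Chiifu side Bra004991 (ratio 0.4998) lay just inside and Bra025224 (ratio 0.500006) just outside.

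In the commonest course of a 28 °C-only gene higher in Kenshin, PI was down in Chiifu at 28 °C while Kenshin kept its level. Over these 1385 genes, the median PI at 22, 12 and 28 °C was 1620, 1673 and 2014 in Kenshin. It was 1380, 1602 and 573 in Chiifu. The rule itself sets the lines close before warming and Chiifu below Kenshin at 28 °C. It does not set which line moved. The intensity minimum bears on this, since in these genes the PI in Kenshin at 28 °C had to be above 500. Without that minimum, 45.2% of such genes were down at least 2-fold from 12 °C in Chiifu and within 2-fold in Kenshin. With it the share was 52.3%. Chiifu at 28 °C was the lowest of the 6 samples in 1124 of the 1385 genes (81.2%), against 20.9% of all 25400 genes. Kenshin at 28 °C was the highest in 648 (46.8%), against 20.6%. The rule itself raises both shares. In the 545 28 °C-only genes higher in Chiifu, Kenshin at 28 °C was the lowest in 58.9% and Chiifu at 28 °C the highest in 62.6%.

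Set against 12 °C, 725 of the 1385 genes (52.3%) were at least 2-fold down in Chiifu at 28 °C and within 2-fold in Kenshin. The reverse route, at least 2-fold up in Kenshin and within 2-fold in Chiifu, was taken by 197 genes (14.2%). In 377 genes (27.2%) neither line moved 2-fold, and 35 genes were up in Kenshin and down in Chiifu. Set against 22 °C, the first route held 640 genes and the second 191. A fall in Chiifu was thus the commoner route from either starting point. Over all 25400 genes, 1116 (4.39%) were at least 2-fold lower at 28 than at 12 °C in Kenshin and 2019 (7.95%) in Chiifu. These counts use the same 28 °C samples as the rule and describe how the values lie.

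The 545 genes higher in Chiifu had no such leading route. Set against 12 °C, 132 genes (24.2%) were at least 2-fold down in Kenshin and within 2-fold in Chiifu, and 121 (22.2%) were at least 2-fold up in Chiifu and within 2-fold in Kenshin. In 257 genes (47.2%) neither line moved 2-fold. The median PI at 22, 12 and 28 °C was 1633, 1740 and 1144 in Kenshin, and 1815, 2091 and 2821 in Chiifu. The lines moved apart by similar amounts in opposite directions.

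**Figure D3:**
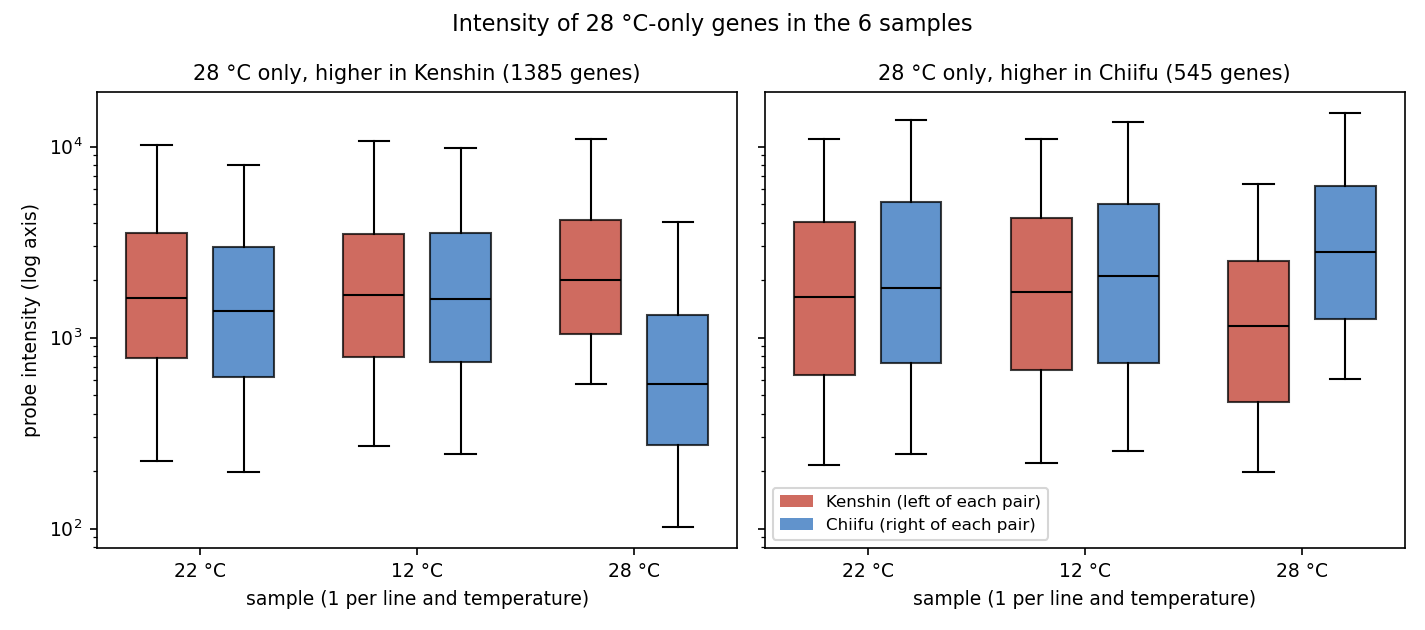
Boxes show the quartiles and median PI (log axis) of the 28 °C-only genes in each sample, with whiskers at the 5th and 95th percentiles, Kenshin on the left and Chiifu on the right of each pair. In the left panel the Chiifu 28 °C sample has a median of 573 while the other 5 samples lie between 1380 and 2014.

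Some of these genes had been raised by cold. Of the 1385 genes higher in Kenshin, 83 (5.99%) were at least 2-fold higher at 12 than at 22 °C in both lines, against 351 (1.38%) of all 25400 genes. In 60 of the 83 the level was then at least 2-fold down at 28 °C in Chiifu but not in Kenshin, a course taken by 96 of the 351. The mirror image, genes higher in Chiifu and raised by cold in both lines whose level then fell at least 2-fold in Kenshin but not in Chiifu, held 17 of 545 genes, and 60 of all 25400. Each course leads in the direction that the rule selects. In a larger group of 450 genes (32.5% of the 1385), neither line differed 2-fold between 22 and 12 °C, Kenshin stayed within 2-fold at 28 °C, and Chiifu was at least 2-fold below both of its earlier levels. Over all 25400 genes this course was taken by 623 (2.45%), the 450 included.

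The largest 28 °C-only differences belonged to the group raised by cold. The files do not pair these identifiers with names. Bra020846 had PI values of 24.5, 10124 and 8832 in Kenshin at 22, 12 and 28 °C and of 17.5, 9956 and 39.2 in Chiifu. It was not above the random sequence in either line at 22 °C and about equally bright in both at 12 °C. After 3 h at 28 °C it had kept its level in Kenshin and had returned nearly to the random sequence in Chiifu, a ratio of 99.6. Bra013620 behaved alike, with values of 78.4, 16447 and 21708 in Kenshin and of 134, 26095 and 242 in Chiifu, a ratio of 74.6. The genes with the next identifiers, singled out after their values were seen, had ratios at 28 °C of 51.7 and 63.9. Their PI was under 100 in both lines at 22 °C, and at 12 °C it was 9455 and 6293 in Kenshin and 12469 and 12604 in Chiifu. Probes of genes alike in sequence can read each other's transcripts, so these values may not be separate measurements.

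The largest 28 °C-only differences on the other side followed different courses. Bra009212 had PI values of 176, 207 and 262 in Kenshin at 22, 12 and 28 °C and of 265, 310 and 3996 in Chiifu. It was up 11.3-fold from 12 to 28 °C in Chiifu and within 2-fold in Kenshin. Bra010332 had values of 2100, 7743 and 547 in Kenshin and of 3286, 8516 and 7645 in Chiifu. This gene was raised by cold in both lines, and at 28 °C its level was down in Kenshin and kept in Chiifu. The line ratios at 28 °C were 0.0770 and 0.0775.

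A few genes turned. At least 2-fold one way at both 22 and 12 °C and at least 2-fold the other way at 28 °C were 10 genes that became higher in Kenshin and 3 that became higher in Chiifu. The widest turn toward Kenshin was in Bra038089, with PI values of 767, 990 and 2750 in Kenshin at 22, 12 and 28 °C and of 1926, 2241 and 114 in Chiifu. Its ratio was 0.413 and 0.454 before warming and 17.1 after it. The widest turn toward Chiifu was in Bra030494, with values of 8248, 13117 and 960 in Kenshin and of 1158, 5837 and 3251 in Chiifu. Its ratio was 6.87 and 2.24 before warming and 0.306 after it. From 12 to 28 °C the level of Bra038089 was down in Chiifu and up in Kenshin, while that of Bra030494 was down in both lines, to 0.0767 of its 12 °C level in Kenshin and 0.561 in Chiifu, with 50 added to each PI.

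The widest lasting differences were nearly all-or-none. Bra012220, which the study lists without an *Arabidopsis* counterpart, had PI values of 5190, 4062 and 11440 in Kenshin at 22, 12 and 28 °C and of 183, 112 and 97.2 in Chiifu. Bra003329 had values of 5097, 5481 and 7406 in Kenshin and of 335, 57.8 and 71.3 in Chiifu. Both were bright in Kenshin and dim in Chiifu whatever the temperature. On the other side, Bra034729 had values of 12.7, 12.9 and 8.90 in Kenshin, not above the random sequence, and of 9214, 7363 and 8525 in Chiifu. Bra035638 had values of 195, 115 and 136 in Kenshin and of 23393, 23412 and 24075 in Chiifu. Temperature moved these genes far less than line did. Of the 927 genes with a lasting difference toward Chiifu, 27 were never above the random sequence in Kenshin at any temperature, and of the 415 toward Kenshin, 3 were never above it in Chiifu.

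**Figure D4:**
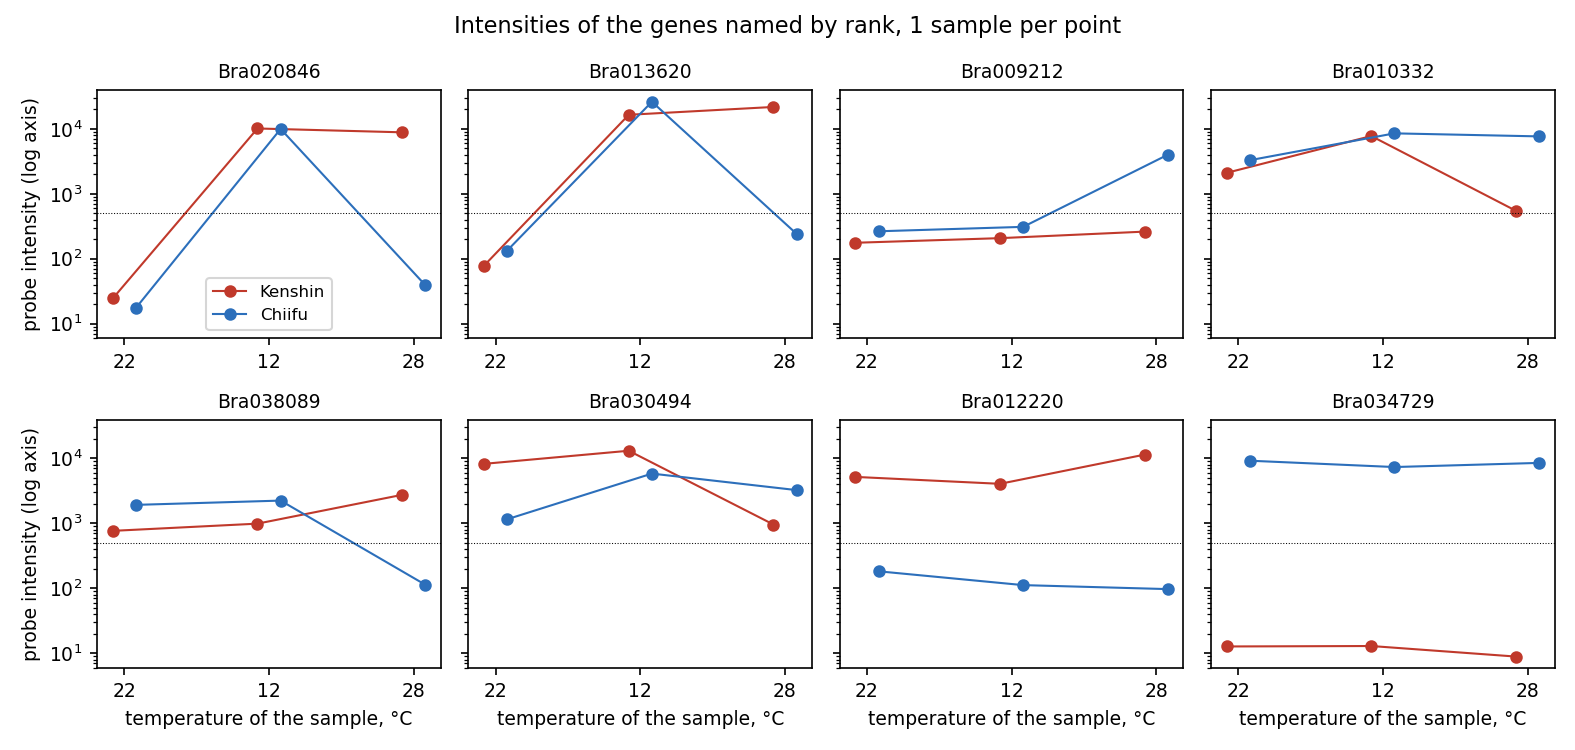
Points are PI values (log axis) of single samples at 22, 12 and 28 °C for the 28 °C-only genes Bra020846, Bra013620, Bra009212 and Bra010332, the turning genes Bra038089 and Bra030494, and the lasting differences Bra012220 and Bra034729, with Kenshin in red, Chiifu in blue and a dotted line at 500. In Bra020846 the lines meet at 12 °C (10124 in Kenshin and 9956 in Chiifu) and part at 28 °C (8832 in Kenshin and 39.2 in Chiifu).

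Genes with a line difference lay at neighbouring identifiers, those that differ by 1, more often than other genes lay beside them. Among lasting differences toward Chiifu, 14.6% of genes had a member of the same class at a neighbouring identifier, against 4.28% of the other genes compared. Toward Kenshin the shares were 7.23% and 1.88%. For 28 °C-only genes the shares were 9.68% and 6.8% toward Kenshin and 3.67% and 2.58% toward Chiifu. The classes differ in size, and no difference between them was tested. Whether neighbouring identifiers are neighbours in the genome was not examined here.

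The study names 99 genes with an identifier, and these were grouped by role. A total of 92 passed the intensity minimum at 28 °C, of which 54 were at least 2-fold higher in Kenshin, 1 was at least 2-fold higher in Chiifu and 37 were under 2-fold. The study picked 64 of them on these same samples by their levels in Kenshin relative to Chiifu at 22 °C and under warming. In the deposited PI values, with nothing added, the PI in Kenshin was at least 2 times that in Chiifu for 60 of the 64 at 22 °C and for 50 at 28 °C, and in 60 the level in Kenshin at 28 °C was at least 2-fold above both of its earlier levels. Since 50 of the 54 came from these 64 genes, their direction is not independent evidence. Of the other 35 genes, 28 passed, with 4 higher in Kenshin and 1 higher in Chiifu, which are 14.3% and 3.57% of those that passed, against 9.3% and 7.65% of all 25400 genes.

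The 3 heat regulators that passed were under 2-fold apart at 28 °C, as were 83.1% of all genes compared. *BrHSFA2* (Bra000557), whose *Arabidopsis* counterpart prolongs acquired thermotolerance, had line ratios of 2.60, 2.17 and 1.41 at 22, 12 and 28 °C. For *BrHSFB2A* (Bra029292), another heat shock factor, the ratio was 2.12 at 22 °C and 1.20 at 28 °C. For *BrROF2* (Bra037477), a peptidyl-prolyl isomerase tied to HSFA2 in *Arabidopsis*, the ratios were 4.68, 1.21 and 1.33. All 3 had been at least 2-fold higher in Kenshin at 22 °C, which the study's choice of them on these samples fixes, and none was at 28 °C. Of all 1673 genes at least 2-fold higher in Kenshin at 22 °C, 870 were under 2-fold at 28 °C. *BrROF1* (Bra013224) did not pass the intensity minimum, with PI values of 39.5 in Kenshin and 41.6 in Chiifu.

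Of 11 other chaperone and heat response genes, none was 2-fold apart at 28 °C, where 16.9% of all genes compared were, with a median ratio of 1.04, while the median was 1.99 at 22 °C and 1.57 at 12 °C. The median ratio of all genes compared was 1.02 at 28 °C. The study had chosen Bra016043, Bra020728 and Bra027363 of this list on these samples, partly by their ratio at 22 °C. The median at 22 °C is therefore not independent of that choice. The *BrHSP70* gene Bra038734 had PI values of 6488, 4093 and 7597 in Kenshin at 22, 12 and 28 °C and of 1049, 1159 and 7871 in Chiifu. The *BrHSP70* gene Bra001457 had values of 9758, 6732 and 13032 in Kenshin and of 1560, 2512 and 8099 in Chiifu. Both were bright in Kenshin at every temperature, and Chiifu came within 2-fold at 28 °C. The *BrHSP101* genes Bra003807 and Bra015922 had ratios of 1.04 and 1.45 at 28 °C. The *BrMPSR1* genes, which encode ligases that tag misfolded proteins, had ratios of 1.03 and 1.02, after 0.584 and 0.353 at 22 °C.

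All 21 small HSP genes passed the intensity minimum. At 28 °C, 9 were at least 2-fold higher in Kenshin, 1 was at least 2-fold higher in Chiifu and 11 were under 2-fold, with a median ratio of 1.70 against 1.02 for all genes. These counts are 42.9% and 4.76% of the 21, against 9.3% and 7.65% of all genes compared. At 22 °C the median ratio of the 21 genes was 1.45 and at 12 °C it was 0.916. Of the 9 genes higher in Kenshin, 5 had been chosen by the study on these samples, so their direction is not independent evidence.

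The 3 *BrHSP18.2* genes, cytosolic small HSPs, all had line ratios below 1 at 12 °C and above 2 at 28 °C. *BrHSP18.2A* (Bra002539) had PI values of 206, 57.8 and 5114 in Kenshin at 22, 12 and 28 °C and of 73.2, 259 and 747 in Chiifu. *BrHSP18.2B* (Bra020295) had values of 2436, 197 and 5383 in Kenshin and of 1659, 383 and 1167 in Chiifu. *BrHSP18.2C* (Bra006697) had values of 765, 426 and 5739 in Kenshin and of 1129, 779 and 2431 in Chiifu. Each was lower in Kenshin at 12 °C, with ratios of 0.349, 0.571 and 0.574, and higher in Kenshin at 28 °C, with ratios of 6.48, 4.47 and 2.33. The last 2 were the only small HSP genes with a 28 °C-only difference, and *BrHSP18.2A* had been at least 2-fold lower in Kenshin at 12 °C, after a ratio of 2.08 at 22 °C. Transcripts of the 3 copies may be read by each other's probes.

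The remaining small HSP genes higher in Kenshin had the difference before warming. The mitochondrial *BrHSP23.6* gene Bra013872 had a ratio of 2.65 at 28 °C after 2.70 at 22 °C, and the *BrHSP22.0*-like gene Bra000703 had 3.62 after 2.67 at 12 °C. The HSP20-like genes Bra018384, Bra030910 and Bra031725 had ratios of 2.16, 2.26 and 2.27, with PI values at 28 °C of 14692, 9204 and 13450 in Kenshin and of 6789, 4041 and 5909 in Chiifu. They are bright genes in both lines. The HSP20-like gene Bra040837, with 637 in Kenshin and 232 in Chiifu, was close to the intensity minimum. The 1 gene that went the other way was the HSP20-like Bra012949, with PI values of 1568, 1799 and 1843 in Kenshin at 22, 12 and 28 °C and of 5473, 4945 and 10796 in Chiifu. Its level in Kenshin hardly differed between temperatures. *BrHSP21* (Bra026317), a chloroplast small HSP, had 603 in Kenshin and 729 in Chiifu at 28 °C, and the class II gene *BrHSP17.6II* (Bra006137) had 2036 and 2513, after a ratio of 9.43 at 22 °C.

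**Figure D5:**
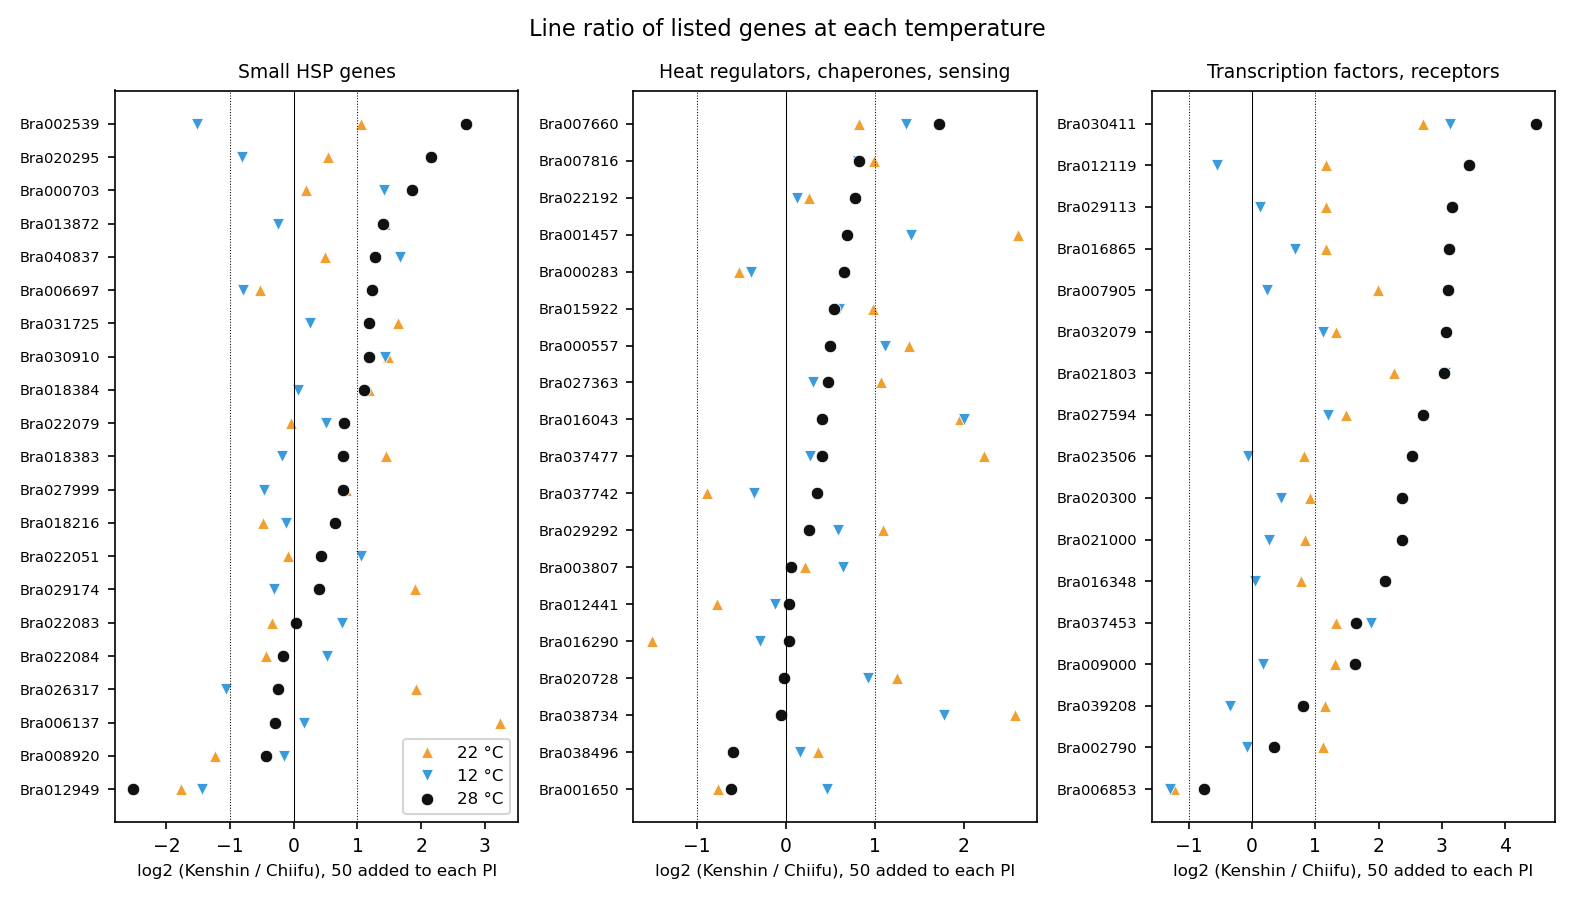
Each row is a gene and each mark its log2 line ratio (Kenshin over Chiifu, 50 added to each PI) at 22, 12 or 28 °C, with dotted lines at 2-fold, for small HSP genes (left), heat regulators, other chaperones and sensing genes (middle), and transcription factors with receptor and resistance genes (right). At 28 °C the black marks of the middle panel lie within 2-fold except for Bra007660, while 9 small HSP genes and 14 of the 17 genes at right lie above 2-fold.

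Among 5 genes of light and temperature sensing, 1 was 2-fold apart at 28 °C, a share of 20.0% against 16.9% of all genes compared. This was *BrPIF6* (Bra007660), a phytochrome interacting factor, with PI values of 1883 in Kenshin and 537 in Chiifu, a ratio of 3.30 after 1.77 at 22 °C and 2.54 at 12 °C. The *BrPIF4* genes Bra000283 and Bra037742 had ratios of 1.57 and 1.28, and at 22 °C both had been below 1, at 0.698 and 0.541. The *BrPHYB* genes Bra022192 and Bra001650 lay on either side of 1, at 1.71 and 0.656. The 6 genes of light and growth (*BrHYH*, *BrCOL1*, *BrCOL2* and *BrGA2OX1*) all had PI values below 500 in both lines at 28 °C and did not pass, although at 22 °C they had been between 3.94 and 9.78-fold higher in Kenshin. The study singled them out for their falls in Kenshin.

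Transcription factors outside the heat group had a median ratio of 5.46 at 28 °C, against 1.70 for the small HSPs. Of 12 genes, 9 were at least 2-fold higher in Kenshin at 28 °C (9.3% of all genes compared were), with ratios of 3.10 to 10.8. The ratio of these 9 was larger at 28 °C than at 22 or 12 °C. The study's listing chosen on these samples, by levels in Kenshin at 22 °C and under warming, holds all of the 12 but Bra006853. It holds a smaller share of the small HSPs. Neither the counts nor the contrast of medians is therefore independent of that choice. The Dof zinc finger gene Bra012119 had PI values of 1159, 983 and 2746 in Kenshin at 22, 12 and 28 °C and of 488, 1459 and 209 in Chiifu. *BrMYB82* (Bra029113), a MYB factor, had values of 205, 371 and 1579 in Kenshin and of 63.7, 334 and 132 in Chiifu. In both genes the lines were within 2-fold at 12 °C, and on warming the level rose in Kenshin and fell in Chiifu by 2-fold or more.

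Among the 28 °C-only genes were 3 of these factors. *BrKNAT6* (Bra016348), a KNOTTED1-like homeobox gene, had PI values of 273, 1004 and 2202 in Kenshin at 22, 12 and 28 °C and of 140, 970 and 475 in Chiifu. *BrHB3* (Bra023506), another homeobox gene, had 389, 372 and 1184 in Kenshin and 197, 389 and 165 in Chiifu. *BrLSH9* (Bra021000) had 189, 112 and 605 in Kenshin and 83.4, 85.3 and 76.6 in Chiifu. Their ratios of 1.70, 1.78 and 1.79 at 22 °C were just short of the limit. Their place among 28 °C-only genes therefore rests on where that limit was set. With nothing added, *BrLSH9* was more than 2-fold apart at 22 °C.

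Of the 5 receptor and disease resistance genes all were at least 2-fold higher in Kenshin (9.3% of all genes compared were), with ratios of 3.14 to 22.5. The study chose all 5 on these samples. The leucine-rich repeat kinase gene Bra030411 had PI values of 874, 1051 and 1992 in Kenshin at 22, 12 and 28 °C and of 92.0, 75.4 and 40.6 in Chiifu. The other kinase gene of this kind, Bra020300, was 28 °C-only, with values at 28 °C of 622 in Kenshin and 79.6 in Chiifu. Its PI at 22 °C was 288 in Kenshin and 129 in Chiifu, more than 2-fold apart with nothing added. *BrRLP22* (Bra021803), a receptor-like protein, had 2013 and 201.

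Among genes of metabolism, transport and other roles, 26 of 27 were at least 2-fold higher in Kenshin (9.3% of all genes compared were). The study again chose these 26 on these samples, and their ratios were 2.21 to 49.9. The widest were the RING/U-box gene Bra025860, with PI values at 28 °C of 5394 in Kenshin and 59.1 in Chiifu, and the hydrolase gene Bra036841, with 3074 and 22.7. Both were more than 6-fold apart at all temperatures. The heavy metal transport gene *BrHIPP27* (Bra009662) had 7086 and 449, and *BrSDH2-2* (Bra028469), a subunit of succinate dehydrogenase, had 6064 and 545. The 2-oxoglutarate oxygenase gene Bra021671 had PI values of 530, 644 and 5146 in Kenshin at 22, 12 and 28 °C and of 246, 68.4 and 240 in Chiifu. Its ratio of 1.96 at 22 °C became 17.9 at 28 °C.

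Of these 26 genes, 5 were 28 °C-only. The lectin gene *BrJAL22* (Bra005053) had PI values of 35.8, 109 and 826 in Kenshin at 22, 12 and 28 °C and of 15.9, 98.9 and 44.7 in Chiifu. The transporter gene *BrOCT2* (Bra035111) had values of 135, 111 and 568 in Kenshin and of 53.4, 36.5 and 22.6 in Chiifu. The others were the 2-oxoglutarate oxygenase gene Bra021552 (ratio 6.60), the glutamate dehydrogenase gene Bra013763 (3.83) and the *BrASL9* gene Bra026716 (3.26). In Chiifu all 5 had a PI of 291 or less at 28 °C. With nothing added, all 5 were more than 2-fold apart at 22 °C. For the last 3, PI at 22 °C was 129, 204 and 454 in Kenshin and 58.9, 91.7 and 209 in Chiifu. *BrOCT2*, Bra021552 and Bra013763 were more than 2-fold apart at 12 °C as well. The place of all 5 among 28 °C-only genes therefore rests on the constant added to each PI.

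The listed 28 °C-only genes reached their difference by another route than most of their class. Of the 12 listed genes of this class, all higher in Kenshin, 11 were at least 2-fold higher at 28 than at 12 °C in Kenshin, and 1 was at least 2-fold lower in Chiifu. In the whole class of 1385 genes the corresponding numbers were 244 and 799. Of the 12, 10 were among the 64 genes the study picked on these samples, nearly all of which had risen in Kenshin on warming, so their route is not independent of that choice. The pair outside the 64 were *BrHSP18.2B* and *BrHSP18.2C*, which the study marks as notable for a possible part in the high temperature response.

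Genes with no 2-fold line difference at 28 °C in the remaining lists were the 3 exportin 1A genes, with ratios of 0.952 to 1.23, and the splicing gene *BrSMP1* (Bra023741), with a ratio of 1.42 after 3.74 at 22 °C. All 4 listed genes without annotation were at least 2-fold higher in Kenshin, against 9.3% of all genes compared. The study chose all 4 on these samples. Of the 4, Bra013396 was 28 °C-only, with 726 in Kenshin and 42.2 in Chiifu at 28 °C. Its PI at 22 °C was 252 in Kenshin and 103 in Chiifu, more than 2-fold apart with nothing added.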

How the data were processed

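Total RNA from shoots was labelled with Cy3 and hybridised to the Br135K array, whose overlapping probes lie at the 3′ end of each Chiifu gene model. The authors deposited 1 linear intensity per gene and sample. The submitters' processing notes name RMA, with the version not given in the sources used here, and the study describes repeated experiments while the labels name 1 sample per line and temperature. Rows of 41173 genes and 15 control features were read with Python 3.11.15, pandas 2.3.3 and numpy 2.4.6 and plotted with matplotlib 3.10.9. Genes with a PI above 500 in at least 1 of the 28 °C samples were kept. Ratios had 50 added to each intensity, and 2-fold was inclusive at 28 °C. The classification code was run on simulated 4-fold differences in bright genes, which does not check calls near 2-fold or in dim genes. The number of arrays limits precision. Samples were grouped by the labels. No test was run, since each line and temperature has 1 sample.

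The members, gene lists and alternatives were chosen with earlier results of these data known. Named were the genes that the study names with an identifier, the 2 highest and 2 lowest ratios of the 28 °C-only genes and of the lasting differences, the widest turn in each direction and the genes next to the 2-fold limit. The gene table of a newer assembly pairs 1 of the identifiers with a symbol, and that gene did not pass the minimum. Alternatives were other added constants, intensity minimums, scalings and limits.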

Additional observations from a re-analysis of the deposited data

Results flagged for a closer look

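Single genes named in the report whose line ratio was at least 2-fold one way at 22 or 12 °C and at least 2-fold the other way at 28 °C were *BrHSP18.2A* (Bra002539), with a ratio of 6.48 at 28 °C and 0.349 at 12 °C, Bra038089, with 17.1 at 28 °C, and Bra030494, with 0.306 at 28 °C. For *BrHSP18.2A* this holds against 12 °C alone, since its ratio at 22 °C was 2.08, in the direction seen at 28 °C. The difference between temperatures was not tested, since each ratio rests on 1 sample per line.

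Signal above the random sequence was present in control features that no comparison used. The control feature pair for sGFP and Bar numbered 6 had a Kenshin over Chiifu ratio at 28 °C of 3.83, with PI values of 1116 in Kenshin and 255 in Chiifu, and its antisense feature had a ratio of 3.59, with 1083 and 266. At 22 °C the ratios of the pair were 2.23 and 2.25, and at 12 °C they were 1.29 and 1.29.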

How the results depend on the processing

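Each line and temperature had 1 sample, so no replicate could be left out, and no paired analysis was possible because no line and temperature has a second sample. Counts past 2-fold were recomputed under 8 alternatives, and the 28 °C-only counts under 2 more. Requiring a PI above 500 in both 28 °C samples left 1137 genes higher in Kenshin and 1107 higher in Chiifu, of which 752 of those higher in Kenshin were 28 °C-only, and 385 and 709 had a difference before warming. A 3-fold limit at 28 °C gave 1183 genes higher in Kenshin (602 at 28 °C only, 581 before warming) and 949 higher in Chiifu (85 and 864), and left 3 small HSP genes higher in Kenshin. With that limit 87.6% of 28 °C-only genes were higher in Kenshin, and 70.8% of these were down in Chiifu and within 2-fold in Kenshin. With a limit of 1.5-fold at 22 and 12 °C, 775 genes higher in Kenshin and 232 higher in Chiifu were 28 °C-only. Where the ratio at 28 °C also had to be at least 2 times that at 22 and 12 °C, these were 855 and 195, and 66.5% of those higher in Kenshin were down in Chiifu alone. Without an intensity minimum 872 genes higher in Chiifu were 28 °C-only. Fewer or more genes enter these counts by construction. The share of 28 °C-only genes higher in Kenshin that were down in Chiifu and within 2-fold in Kenshin lay between 45.2% and 70.8%. In each alternative more 28 °C-only genes were higher in Kenshin than in Chiifu. No named gene that was 2-fold apart turned its direction under 4 alternatives, and with 200 added 61 of 67 stayed 2-fold apart. Percentages and the small HSP count were added to the alternatives after the data were seen. Values near the random sequence limit ratios of dim genes.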
